A study of Mus musculus with 12 samples.

Results

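Transcripts of 10 genes of the NF-κB pathway were measured in mouse liver cancer cell lines. They were the subunit genes Nfkb1, Nfkb2, Rela and Relb, the inhibitor and feedback genes Nfkbia, Nfkbiz, Tnfaip3 and Birc3, and the adhesion molecule genes Icam1 and Vcam1. The genes were taken by symbol, through their Ensembl gene IDs, from the 47729 genes counted. All 10 passed the filter on low counts in each of the 6 comparisons made.

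The lines came from mice in which, per the design text, mutant BRAF was expressed in hepatocytes together with deletion of Trp53 or Cdkn2a, and the sources used here do not give what drives the allele. The labels give the genotype BRAFV600E; p53 KO for every line, so the DMSO controls carry both alterations too. T1, T2 and T3 were derived from primary tumours of the liver. M1, M2 and M3 were derived from metastases, which the labels place in lymph nodes and assign to hepatocellular carcinoma. Each line was cultured for 48 h with 2 µM PLX4720, an inhibitor of mutant BRAF kinase, or with its solvent DMSO, and gave 1 RNA-seq library per treatment. The replicates are thus lines, 3 per site. Whether a line is a clone is not stated, and T3, M2 and M3 carry 1 shared number in the names of their deposited tables. It is therefore not known whether these lines came from separate animals, and p-values measure the spread between the lines at hand.

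The libraries held 31992512 to 39288748 counted fragments. Mitochondrial genes took 3.67% of the fragments in T3 after PLX4720 and 0.189% to 0.712% in the other libraries. The site labels went with a difference in cell type markers. The 7 epithelial and cholangiocyte markers summed to between 5501 and 7743 CPM (fragment counts scaled to library size) in primary lines after DMSO and to between 23.8 and 37 CPM in metastasis lines. Of these markers Sox9 overlapped between the sites, at 36.7, 9.92 and 23.7 CPM in T1, T2 and T3 and 28.3, 23.1 and 19.5 CPM in M1, M2 and M3. The 7 hepatocyte markers summed to 163 to 262 CPM in primary against 0.446 to 4.12 CPM in metastasis lines after DMSO. Most of the primary sum was Hnf4a, at 141 to 251 CPM. Alb stood at 0.132 to 7.69 CPM in primary lines after DMSO and at 0 in every metastasis library. The 7 fibroblast and stellate markers summed to 1.61 to 19.1 CPM in primary and 203.7 to 1677 CPM in metastasis lines after DMSO, and to 1.88 to 70.2 CPM and 2197 to 5544 CPM after PLX4720. Of these, 5 were above 1 CPM in every metastasis library and Des was at 0 in all of them. Leukocyte markers summed to 2.20 to 10.95 CPM over all groups, with Adgre1 at 0 in every library. In bulk RNA, fewer cells of a type and less RNA per cell cannot be told apart.

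NF-κB proteins are dimers of Rel-family subunits that are held in the cytoplasm by inhibitors of the IκB family. In the canonical branch, signals from TNF, interleukin 1 or Toll-like receptors lead to degradation of IκBα, which frees RelA with p50; in the non-canonical branch, processing of p100 frees p52 with RelB. The dimers induce their own inhibitors, a feedback that ends the response, together with survival factors, chemokines and adhesion molecules. In the liver the pathway is known for its part in inflammation and in hepatocyte survival.

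Promoter sequence was read from RefSeq (GRCm38.p6) for the members that had an entry: Nfkb2, Rela, Nfkbia, Tnfaip3, Birc3 and Icam1. Nfkb1, Relb, Nfkbiz and Vcam1 had none. Windows of 300 bases, most of each upstream of a transcription start, were searched on both strands for the 10-base κB consensus, the DNA element to which NF-κB dimers bind, and overlapping matches were counted as 1. A match was present in a window of 3 of these 6 genes, namely Nfkb2, Nfkbia and Tnfaip3. Over all 27025 genes with such windows, 9.55% held a match. A match is a description of the letters and not evidence of binding. The sequence directly upstream of the start is shown for Nfkbia and Tnfaip3, feedback genes with a match that rose with PLX4720, and for Icam1, the member with the largest fitted response. The stretches hold no annotated exon and lie at chr12:55492648-55492897 on the minus strand for Nfkbia, at chr10:19015411-19015547 on the minus strand for Tnfaip3 and at chr9:21015690-21015939 on the plus strand for Icam1. Starts are those of RefSeq. For Tnfaip3 the stretch lies within the gene as annotated for the counts (chr10:19000910-19015657), whose start is further upstream. Each is written 5′ to 3′ on the strand of the gene, with matches to the consensus in capitals.
Nfkbia: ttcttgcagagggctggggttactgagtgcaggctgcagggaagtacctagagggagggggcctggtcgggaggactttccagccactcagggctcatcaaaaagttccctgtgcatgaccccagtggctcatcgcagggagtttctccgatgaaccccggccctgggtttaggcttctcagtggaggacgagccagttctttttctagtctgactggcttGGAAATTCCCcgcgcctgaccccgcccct
Tnfaip3: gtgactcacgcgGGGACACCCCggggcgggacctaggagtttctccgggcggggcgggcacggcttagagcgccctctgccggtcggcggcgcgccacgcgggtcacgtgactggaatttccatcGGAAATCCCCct
Icam1: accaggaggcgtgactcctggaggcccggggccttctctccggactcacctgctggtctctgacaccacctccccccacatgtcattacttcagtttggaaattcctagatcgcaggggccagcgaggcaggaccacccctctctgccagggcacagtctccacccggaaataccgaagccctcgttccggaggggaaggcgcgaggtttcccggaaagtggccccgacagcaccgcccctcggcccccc
In Nfkbia 1 match covered bases -29 to -20 from the start, and in Tnfaip3 the matches covered bases -125 to -116 and -12 to -3. In the Nfkb2 window that opens the gene, matches covered bases -39 to -29 and -11 to -2. The Icam1 window held no match, which says only that these letters are not in it.

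Most of the members rose with PLX4720, and in the fit over all 6 lines the change of each feedback and adhesion gene was larger than that of any subunit gene. In primary lines that order did not hold, since Relb (log2 change 0.63) was above Birc3 (0.42) and Nfkbiz (0.35). Over the 6 lines, 7 of 10 members passed the threshold (edgeR quasi-likelihood test, Benjamini-Hochberg adjusted p under 0.05) as higher and 0 as lower, where 14.5% of all 16555 genes tested were higher and 12.7% lower. The called members were Relb, Nfkbia, Nfkbiz, Tnfaip3, Birc3, Icam1 and Vcam1. Their fitted log2 changes ran from 0.36 for Relb to 3.03 for Icam1. The median log2 change was 0.48 over the members and 0.03 over all genes. The same fit of all libraries held a treatment term for each site. In the primary term 3 members were higher and 0 lower, with 4.46% of all genes higher and 3.77% lower. In the metastasis term 5 were higher and 0 lower, with 12.0% of all genes higher and 8.36% lower. The genes called in primary lines were Relb, Icam1 and Vcam1, and those called in metastasis lines were Nfkbia, Nfkbiz, Tnfaip3, Birc3 and Icam1. The order of the 2 counts depended on the fit. With the libraries of each site fitted alone, 9 members passed in primary lines and 2 in metastasis lines, where Icam1 was not tested. Being called at 1 site and not at the other is not a difference between sites, which was tested separately. By level rather than by test, Nfkbia, Nfkbiz, Tnfaip3, Birc3, Icam1 and Vcam1 were higher after PLX4720 in 6 of 6 lines, as were 12.7% of all genes. For Icam1 in M2 this was 1 fragment after DMSO and 2 after PLX4720, too few to give a direction. Nfkb1, Nfkb2, Rela and Relb were higher in 5 of 6 lines, with M2 as the exception for each of them.

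**Figure D1:**
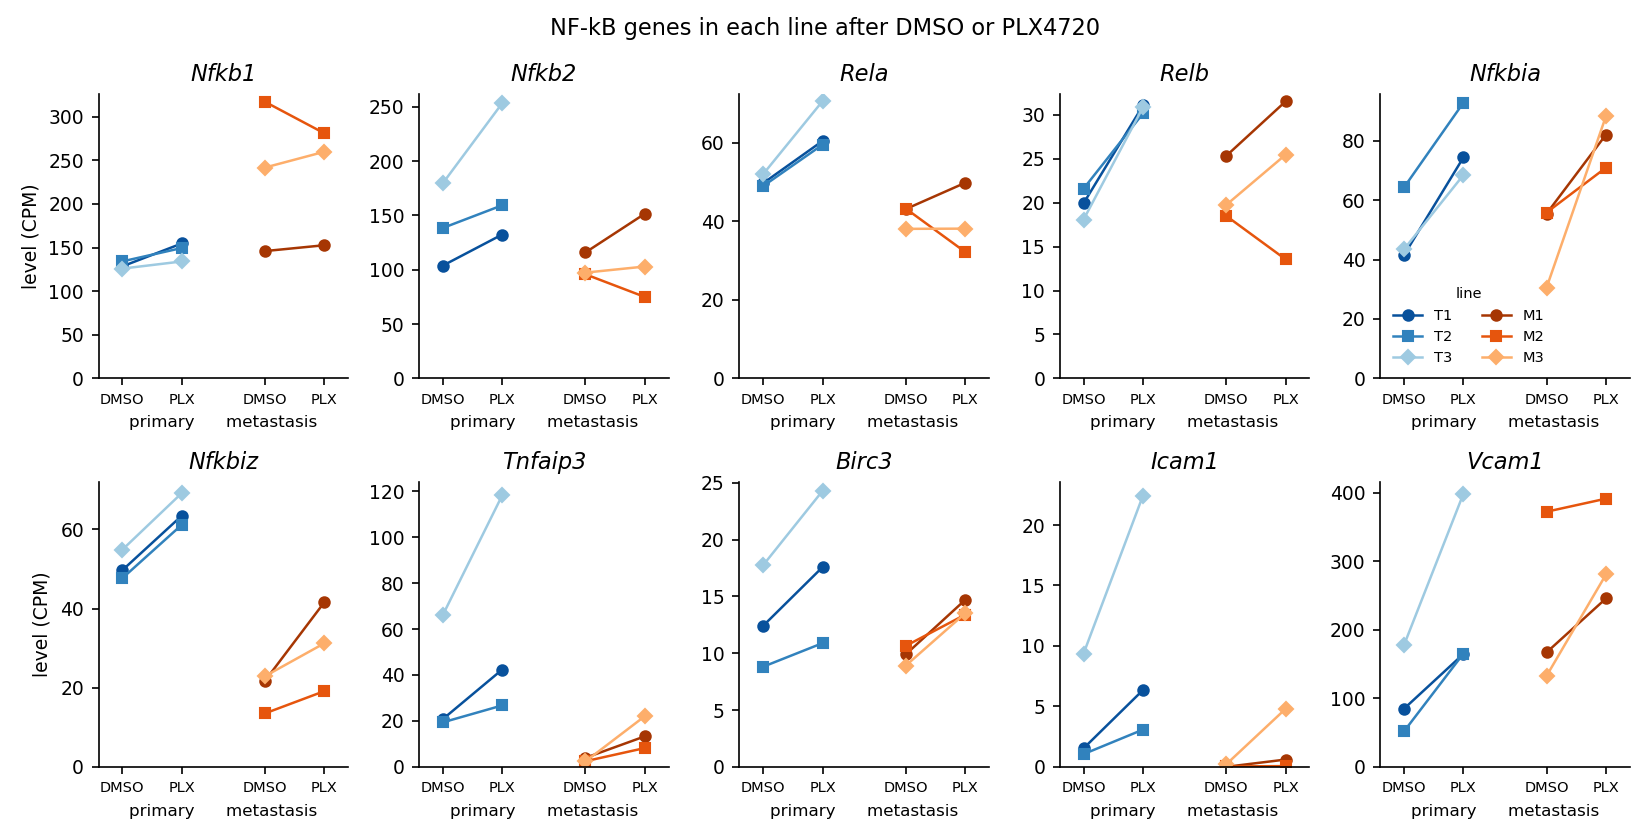
Level of each member (CPM, TMM-scaled, linear axis from 0) in the DMSO and PLX4720 library of each line, with 1 line joining the libraries of a cell line and blue for primary and orange for metastasis lines. Rela, Nfkbiz and Tnfaip3 lie lower in all metastasis lines than in all primary lines of the same treatment, and M2 is lower after PLX4720 in all 4 subunit panels.

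The subunit genes had the smallest fitted changes over all 6 lines, though not in primary lines. Nfkb1 (chr3:135584655-135691547, minus strand) encodes p105, the precursor of p50. Its level in T1, T2 and T3 was 128, 134 and 126 CPM after DMSO and 155, 149.5 and 134 CPM after PLX4720. In M1, M2 and M3 it was 146, 317 and 241.8 CPM after DMSO and 153, 281 and 259.9 CPM after PLX4720. M2 and M3 stood above all other lines under either treatment, while M1 stood close to the primary lines. The fitted change with PLX4720 over all lines was 0.08 ± 0.06 on the log2 scale (SE; edgeR adjusted p = 0.341).

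Nfkb2 (chr19:46304737-46312090, plus strand) encodes p100, the precursor of p52. It went from 104 to 132 CPM in T1, from 138 to 159 CPM in T2 and from 179.7 to 253 CPM in T3. In the metastasis lines it went from 116 to 152 CPM in M1, from 95.8 to 75.0 CPM in M2 and from 97.4 to 103 CPM in M3. T3 was highest under either treatment, and the sites overlapped. The change over all lines was 0.19 ± 0.09 (SE; edgeR adjusted p = 0.155), but without M2 it was 0.29 and passed (adjusted p = 0.0329).

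Rela (chr19:5637483-5648130, plus strand) encodes p65, the transactivating subunit of the canonical dimer. It stood at 49.7, 49.0 and 52.1 CPM in T1, T2 and T3 after DMSO and at 60.5, 59.6 and 70.7 CPM after PLX4720. The levels in M1, M2 and M3 were 43.1, 43.3 and 38.1 CPM after DMSO and 49.8, 32.2 and 38.2 CPM after PLX4720. Every metastasis line was below every primary line of the same treatment. M3 had 1312 fragments in both libraries, so its direction rests on library scaling. Rela did not pass in primary lines (0.34 ± 0.12, SE; edgeR adjusted p = 0.12) or in metastasis lines (-0.07 ± 0.12; adjusted p = 0.734).

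Relb (chr7:19606217-19629438, minus strand), which encodes the partner of p52 in the non-canonical dimer, was the subunit gene that passed. In T1, T2 and T3 it stood at 19.9, 21.6 and 18.1 CPM after DMSO and at 31.1, 30.2 and 30.9 CPM after PLX4720. In M1, M2 and M3 it stood at 25.3, 18.5 and 19.7 CPM after DMSO and at 31.5, 13.6 and 25.5 CPM after PLX4720. All primary lines ended at nearly the same level, and M2 alone was lower after PLX4720. The change was 0.63 ± 0.16 in primary lines (SE; edgeR adjusted p = 0.0468) and 0.09 ± 0.16 in metastasis lines (adjusted p = 0.759). Over all 6 lines it was 0.36 ± 0.11 (SE; edgeR adjusted p = 0.0459), a call that was lost without T1, T2, T3, M1 or M3 (adjusted p from 0.0841 to 0.132).

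The inhibitor and feedback genes all rose over the 6 lines. Nfkbia (chr12:55489411-55492647, minus strand) encodes IκBα, the inhibitor that NF-κB itself induces, and a consensus match stood just upstream of its start in the sequence shown. Its level in T1, T2 and T3 went from 41.5, 64.2 and 43.4 CPM to 74.3, 92.8 and 68.4 CPM. In M1, M2 and M3 it went from 55.4, 55.8 and 30.5 CPM to 82.0, 70.9 and 88.3 CPM. The level was higher in each line, with folds from 1.27 in M2 to 2.89 in M3, and the sites overlapped. The log2 change over all lines was 0.74 ± 0.14 (SE; edgeR adjusted p = 0.00563). It was 0.68 ± 0.19 for the primary site (adjusted p = 0.0656) and 0.81 ± 0.20 for the metastasis site (adjusted p = 0.0205).

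Nfkbiz (chr16:55811375-55838899, minus strand) encodes IκBζ, a nuclear IκB-family protein that co-activates a subset of secondary NF-κB targets. It stood at 49.7, 47.7 and 54.9 CPM in T1, T2 and T3 after DMSO and at 63.5, 61.2 and 69.2 CPM after PLX4720. The metastasis lines M1, M2 and M3 had 21.8, 13.5 and 22.9 CPM after DMSO and 41.6, 19.1 and 31.2 CPM after PLX4720. All metastasis libraries lay below all primary libraries, and M1 had the largest step. Over all lines the log2 change was 0.49 ± 0.08 (SE; edgeR adjusted p = 0.00297). In metastasis lines it was 0.63 ± 0.11 (adjusted p = 0.00508), and in primary lines 0.35 ± 0.11 (adjusted p = 0.0823).

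Tnfaip3 (chr10:19000910-19015657, minus strand) encodes A20, a ubiquitin-editing enzyme that shuts off signalling upstream of the IκB kinase. In T1, T2 and T3 it went from 20.8, 19.4 and 66.1 CPM to 42.4, 26.7 and 118 CPM. In M1, M2 and M3 it went from 3.91, 2.44 and 2.35 CPM to 13.3, 8.19 and 22.1 CPM. T3 was highest under either treatment. No metastasis line reached a primary line of the same treatment, although M3 after PLX4720 was above T1 and T2 after DMSO. The folds were 2.04, 1.38 and 1.79 in T1, T2 and T3 and 3.397, 3.36 and 9.38 in M1, M2 and M3. The log2 change over all lines was 1.51 ± 0.18 (SE; edgeR adjusted p = 0.000807). It was 2.24 ± 0.28 in metastasis lines (adjusted p = 0.000821) and 0.78 ± 0.24 in primary lines (adjusted p = 0.0784).

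Birc3 (chr9:7848699-7873186, minus strand) encodes cIAP2, a ubiquitin ligase of TNF receptor complexes that protects cells from death. Its level went from 12.4, 8.82 and 17.8 CPM to 17.6, 10.9 and 24.3 CPM in T1, T2 and T3. In M1, M2 and M3 it went from 9.91, 10.7 and 8.91 CPM to 14.7, 13.4 and 13.5 CPM. The steps were small but of one direction, with folds between 1.24 in T2 and 1.52 in M3. The log2 change was 0.46 ± 0.08 over all lines (SE; edgeR adjusted p = 0.00505). In metastasis lines it was 0.50 ± 0.12 (adjusted p = 0.0185), a call lost without M1 or M3 (adjusted p = 0.0643 and 0.0783).

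Both adhesion molecules rose with PLX4720, from very different levels. Icam1 (chr9:21015960-21028797, plus strand) encodes a ligand of the leukocyte integrins LFA-1 and Mac-1. In T1, T2 and T3 it went from 1.53, 1.05 and 9.37 CPM to 6.35, 3.08 and 22.4 CPM. In M1 it went from 0 to 0.602 CPM, in M2 from 0.0298 to 0.0606 CPM and in M3 from 0.203 to 4.80 CPM. T3 stood highest throughout, M3 after PLX4720 lay within the range of the primary lines, and M1 and M2 stayed near 0.

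The fragments behind these Icam1 levels were 55, 40 and 372 after DMSO and 243, 113 and 839 after PLX4720 in T1, T2 and T3. In M1, M2 and M3 they were 0, 1 and 7 after DMSO and 22, 2 and 165 after PLX4720. The fold was 4.15 in T1 (exact 95% counting interval 3.08 to 5.66), 2.92 in T2 (2.02 to 4.31) and 2.39 in T3 (2.12 to 2.71). M3 had a fold of 23.6 with an interval of 11.2 to 59.6. M1 was at least 6.73-fold higher, against a floor of 3 fragments for a library at 0. No fold is given for M2, where both libraries were under that floor. The intervals cover counting error only, since the reads carry no molecular identifiers.

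The fitted log2 change of Icam1 was 3.03 ± 0.29 over all lines (SE; edgeR adjusted p = 0.000294). It was 1.59 ± 0.26 in primary lines (adjusted p = 0.0131) and 4.47 ± 0.52 in metastasis lines (adjusted p = 0.000626). The metastasis value rests on 8 fragments over the DMSO libraries, so it depends on the prior count of the fit. In primary lines the call was lost without T1, T2 or T3 (adjusted p = 0.109, 0.0612 and 0.0526).

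Vcam1 (chr3:116109949-116129688, minus strand) encodes a ligand of the integrin α4β1. It went from 84.6 to 165 CPM in T1, from 51.7 to 165 CPM in T2 and from 177 to 398 CPM in T3. In M1 it went from 167 to 246 CPM, in M2 from 372 to 391 CPM and in M3 from 133 to 280.5 CPM. T1 and T2 ended at the same level, and M2, already highest after DMSO, moved least. The log2 change was 0.92 ± 0.13 over all lines (SE; edgeR adjusted p = 0.002) and 1.27 ± 0.19 in primary lines (adjusted p = 0.00984), where it was lost without T2 (adjusted p = 0.0614). In metastasis lines it was 0.57 ± 0.19 and missed the threshold (adjusted p = 0.0646), and it passed there without M2 (0.80; adjusted p = 0.0366).

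Cell type markers and the mitochondrial share also differed between libraries. T3, whose PLX4720 library has the high mitochondrial share, was the highest line for Tnfaip3, Birc3 and Icam1 after DMSO as well. Its share after DMSO was 0.697%, within the range of the other libraries. Without T3 there were 6 called members over all lines, as there were without T1, T2, M1 or M3. Endothelial markers, whose cells also bear ICAM1 and VCAM1, summed to 0.316 to 75.1 CPM in primary lines after DMSO, of which Tek in T1 gave 69.6 CPM. They summed to 0.627 to 38.5 CPM in primary lines after PLX4720, to 0.436 to 0.865 CPM in metastasis lines after DMSO and to 0.455 to 1.94 CPM after PLX4720. Pecam1 stayed between 0.0523 and 0.6685 CPM in all libraries. The sum of the fibroblast and stellate markers was higher after PLX4720 at the metastasis site, as given above. The part of these differences in the changes of the members was not tested.

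**Figure D2:**
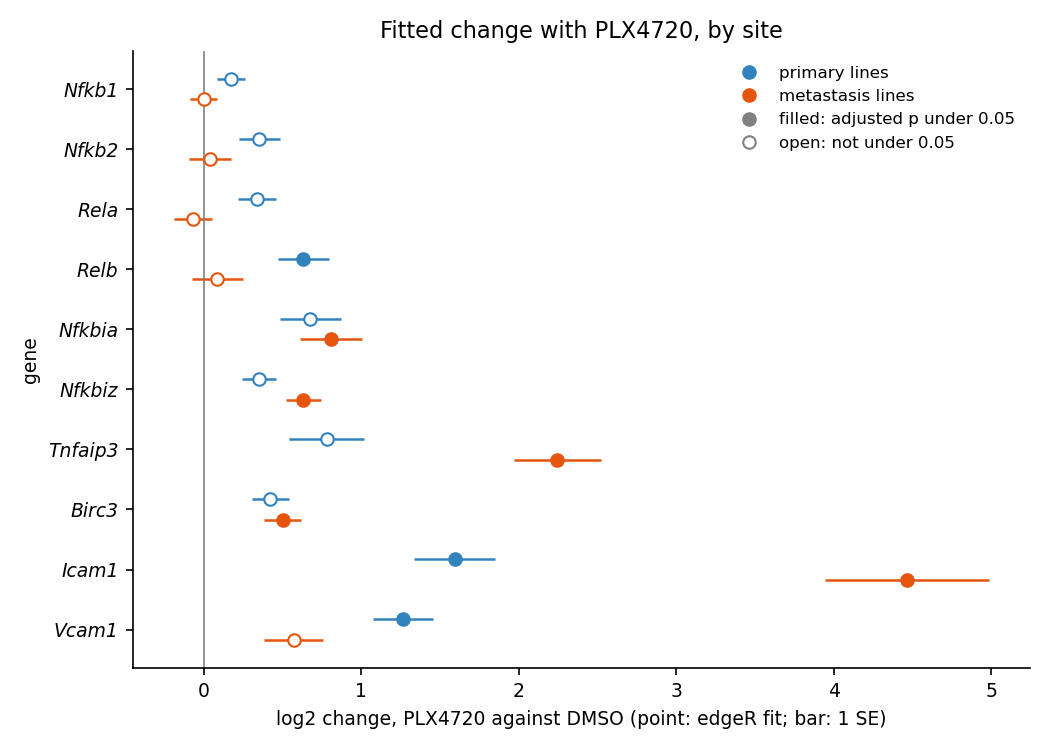
Fitted log2 change with PLX4720 (point) and 1 SE (bar) for each member in primary (blue) and metastasis (orange) lines, filled where the edgeR adjusted p was under 0.05. The values run from -0.07 for Rela to 4.47 for Icam1, both in metastasis lines.

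The difference between sites in the response asks whether primary and metastasis lines changed by unequal amounts. Icam1 passed this test as the single member of 10, where 2.94% of all genes passed in either direction and 1.85% as higher in metastasis lines. Its fitted change was larger in metastasis lines by 2.87 ± 0.61 on the log2 scale (SE; edgeR adjusted p = 0.0438). The call was lost without T1, T2, T3 or M3 (adjusted p = 0.07, 0.126, 0.132 and 0.428). Icam1 had passed the filter on low counts through the primary lines alone. With the metastasis libraries fitted alone it was not tested. The DMSO libraries of M1, M2 and M3 held 0, 1 and 7 Icam1 fragments, so the fitted difference rests on counts near 0. On the log2(CPM + 1) scale, which gives little weight to levels near 0, the order is another one. There the changes of Icam1 were 1.54, 0.99 and 1.18 in T1, T2 and T3 and 0.68, 0.04 and 2.27 in M1, M2 and M3, so that M1 and M2 stood below all primary lines.

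Tnfaip3 had the next largest difference, 1.46 ± 0.36, which missed the threshold (SE; edgeR adjusted p = 0.0721) and passed without M1 (1.75; adjusted p = 0.0268). Its log2(CPM + 1) changes, 0.99, 0.45 and 0.83 in T1, T2 and T3 against 1.54, 1.42 and 2.78 in M1, M2 and M3, did not overlap. The changes of Nfkbiz did not overlap either, with metastasis lines higher, as for 12.3% of all genes. Those of Rela and Relb did not overlap with metastasis lines lower, as for 11.0% of all genes. The fitted differences of Rela, Relb and Vcam1 were -0.41 ± 0.17, -0.55 ± 0.23 and -0.70 ± 0.27 (SE; edgeR adjusted p = 0.312, 0.305 and 0.255). Those of Nfkb1, Nfkb2, Nfkbia, Nfkbiz and Birc3 lay between -0.31 and 0.28 and did not pass.

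Metastasis lines were compared with primary lines after DMSO to ask how the pathway stood without the inhibitor. Tnfaip3 and Nfkbiz were lower in metastasis lines, so 2 of 10 members were lower and 0 higher, where 7.49% of all 14992 genes tested were lower and 4.64% higher. Tnfaip3 had a mean of 35.4 ± 26.6 CPM at the primary and 2.90 ± 0.875 CPM at the metastasis site (SD, n = 3 lines), a log2 difference of -3.60 ± 0.61 (SE; edgeR adjusted p = 0.0145). Without M2 or M3 it missed the threshold (adjusted p = 0.0656 and 0.0569). Nfkbiz stood at 50.7 ± 3.72 CPM against 19.4 ± 5.13 CPM (SD, n = 3 lines), a difference of -1.38 ± 0.26 (SE; edgeR adjusted p = 0.0206). That call was lost without T1, T2, T3 or M2 (adjusted p from 0.0508 to 0.055).

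Icam1 had the largest fitted difference after DMSO, -5.61 ± 1.45 (SE) on 8 fragments over the metastasis libraries, and missed the threshold (edgeR adjusted p = 0.054). It passed with library totals alone (adjusted p = 0.0496), without the filter on low counts (adjusted p = 0.0491) and with DESeq2 (adjusted p = 0.000169). It also passed with the replicate block (adjusted p = 0.0294), but replicate numbers do not pair the sites. Icam1 missed the threshold with RLE scaling (adjusted p = 0.0542) and with 4 group means in 1 fit (adjusted p = 0.058). It also missed with any 1 line left out (adjusted p from 0.0649 to 0.182). It had passed the filter on low counts through the primary lines alone, so a difference there was built in. Nfkb1 went the other way at 0.87 ± 0.28 and did not pass (adjusted p = 0.106), but passed without M1 (1.12; adjusted p = 0.0272). By level, Nfkb1 was higher in every metastasis line than in every primary line, as were 15.2% of all genes. Rela, Nfkbiz, Tnfaip3 and Icam1 were lower without overlap, as were 17.9% of all genes. The differences of Nfkb2, Rela, Relb, Nfkbia, Birc3 and Vcam1 did not pass. The medians were -0.33 over the members and 0.00 over all genes.

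After PLX4720, 0 of 10 members passed between the sites, where 13.5% of all 15276 genes did. At an unadjusted p under 0.05 there were 4 members, Nfkb1, Rela, Nfkbiz and Tnfaip3, where 27.5% of all genes lay under it. DESeq2 called 2, Nfkbiz and Tnfaip3. Tnfaip3 differed by -2.08 ± 0.65, with a mean of 62.5 ± 48.9 CPM at the primary and 14.5 ± 7.02 CPM at the metastasis site (SD, n = 3 lines; edgeR adjusted p = 0.0874). Nfkbiz differed by -1.05 ± 0.30 (SE; edgeR adjusted p = 0.0663). Rela, Nfkbiz and Tnfaip3 were lower in all metastasis lines without overlap, as were 18.2% of all genes. Icam1 overlapped here, at -2.51 ± 1.44 (adjusted p = 0.322). Comparisons across sites share their lines with the difference in epithelial, hepatocyte and fibroblast markers given above, and site and cell type markers cannot be told apart.

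**Figure D3:**
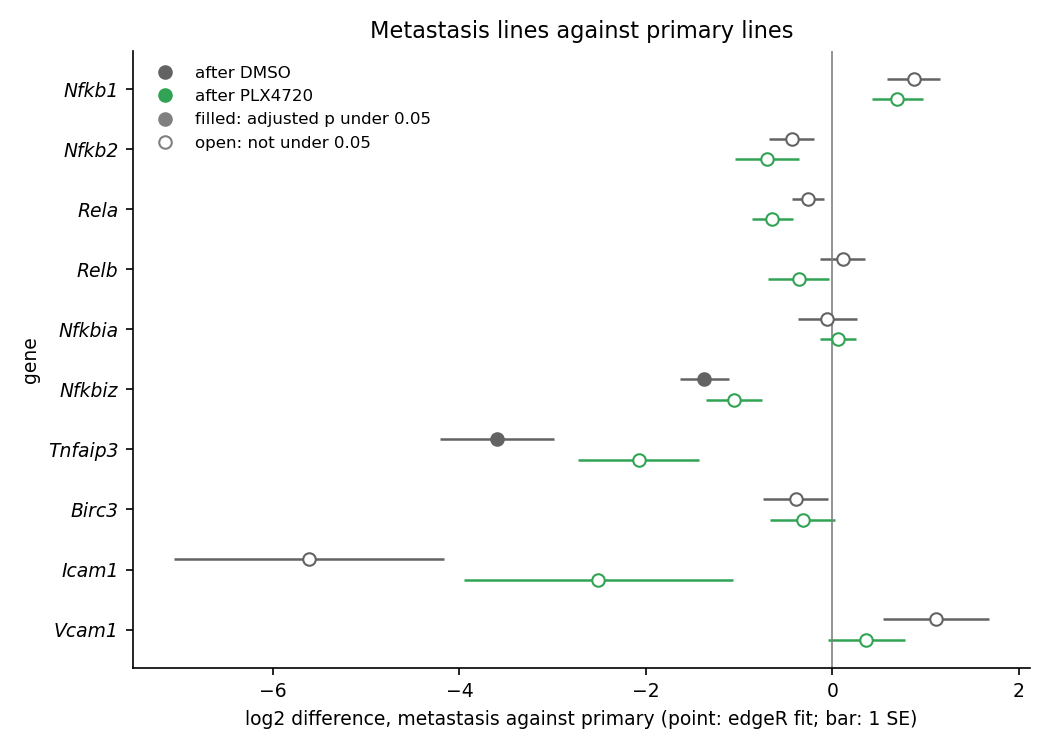
Fitted log2 difference between metastasis and primary lines (point) and 1 SE (bar) for each member after DMSO (grey) and after PLX4720 (green), filled where the edgeR adjusted p was under 0.05. After DMSO Nfkbiz (-1.38) and Tnfaip3 (-3.60) are filled, and after PLX4720 none is.

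Scaled to exon length, the levels of different members can be set beside each other, but only roughly. The length covers every annotated exon of a gene rather than 1 transcript. It was 12061 bases for Nfkb1 and 8870 for Vcam1, against 2716 for Rela and 1577 for Nfkbia. The order between members thus depends on the annotation. In primary lines after DMSO, Nfkb2 and Nfkbia led at 42.8 ± 11.5 and 31.5 ± 8.00 CPM per kb (mean ± SD, n = 3 lines), with overlapping ranges. Rela followed at 18.5 ± 0.585, below the range of Nfkbia, then Vcam1, Nfkb1 and Nfkbiz at 11.8 ± 7.35, 10.7 ± 0.351 and 10.1 ± 0.741 CPM per kb. From Rela to Nfkbiz, each of these 4 genes overlapped with the next in the ranges of the lines. Relb, Tnfaip3, Birc3 and Icam1 closed the order, at 5.12 ± 0.453, 4.90 ± 3.68, 2.60 ± 0.899 and 1.57 ± 1.84 CPM per kb, each overlapping with the next and all below the range of Nfkbiz. In metastasis lines after DMSO the order opened with Nfkb2, Nfkbia and Vcam1, at 31.3 ± 3.401, 29.97 ± 9.18 and 25.2 ± 14.6 CPM per kb, again overlapping. It closed with Birc3, Tnfaip3 and Icam1, at 1.96 ± 0.174, 0.401 ± 0.121 and 0.0306 ± 0.0432 CPM per kb, each apart from the next.

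After PLX4720 Nfkb2 and Nfkbia again led in primary lines, at 55.3 ± 19.3 and 49.8 ± 8.05 CPM per kb, and Birc3 came last at 3.51 ± 1.34, overlapping with Icam1 at 4.18 ± 4.08 (mean ± SD, n = 3 lines). In metastasis lines Nfkbia moved to the top at 51.0 ± 5.57 CPM per kb, without overlap with Vcam1 at 34.5 ± 8.57. Icam1 stayed last there at 0.717 ± 1.02 CPM per kb, overlapping with Tnfaip3 at 2.01 ± 0.972.

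The wider pathway was read from lists of receptors, adaptors and kinases, other Rel, IκB and feedback genes, other targets, and adhesion partners. Of 29 receptor, adaptor and kinase genes tested over all 6 lines, 6 rose with PLX4720 and 0 fell, with a median log2 change of 0.15. Over all genes 14.5% rose and 12.7% fell, with a median of 0.03. Tlr2, a receptor for bacterial lipoproteins, rose by 1.66 ± 0.16 (SE; edgeR adjusted p = 0.000272). Birc2, which encodes cIAP1, rose by 0.57 ± 0.09, Map3k14, which encodes the NF-κB-inducing kinase of the non-canonical branch, by 0.52 ± 0.08, and Irak2, a kinase of the interleukin 1 and Toll-like receptor complexes, by 0.45 ± 0.08. In metastasis lines 8 of the 29 rose, beside 12.0% of all genes, and in primary lines 2, Tlr2 and Birc2, beside 4.46%.

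Of 19 other Rel, IκB and feedback genes, 5 rose over all lines and 0 fell (14.5% and 12.7% of all genes), with a median of 0.15. Nfkbie, which encodes IκBε, rose by 0.67 ± 0.17, Tnip1, an A20-binding protein, by 0.57 ± 0.13, Tank, a TRAF-binding adaptor, by 0.40 ± 0.08 and Cyld, a deubiquitinase, by 0.24 ± 0.07 (SE; edgeR adjusted p = 0.0196, 0.0141, 0.00873 and 0.0389). In primary lines 0 of 19 rose (4.46% of all genes) and in metastasis lines 4 did (12.0%). Between the sites after DMSO, 3 of 19, Tnip1, Tnip3 and Peli1, were called lower in metastasis lines and 1, Pdlim2, higher, beside 7.49% and 4.64% of all genes. Tnip1, whose product works with A20, stood at 59.8 CPM in primary and 17.7 CPM in metastasis lines (means of 3 lines; log2 difference -1.74 ± 0.28, edgeR adjusted p = 0.0115). Tnip3 had 321 fragments over the primary and 2 over the metastasis libraries after DMSO. Like Icam1 it had passed the filter on low counts through the primary lines alone, so its lower call was built in.

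Other targets moved both ways. Of 24 tested over all lines, 9 rose and 4 fell, beside 14.5% and 12.7% of all genes, with a median of 0.01. Cxcl5, a neutrophil chemokine, rose by 1.91 ± 0.17, while Cflar, an inhibitor of caspase 8, and Tnfaip2 fell by 0.67 and 1.01 (log2; edgeR adjusted p = 0.000215, 0.000947 and 0.000408). Sele, which encodes E-selectin, an adhesion molecule known from endothelium, fell in metastasis lines from 6.70 to 0.329 CPM (means of 3 lines; log2 change -4.34 ± 0.27, edgeR adjusted p = 4.12e-05). It had 684 fragments over the metastasis libraries after DMSO and 34 after PLX4720, against 12 and 1 over the primary libraries. Sele thus passed the filter on low counts mainly through the libraries in which it was high, which favours a fall. Csf1, the macrophage growth factor, and Gadd45b, a stress-induced gene, rose in primary lines by 0.99 ± 0.17 and 1.31 ± 0.26 (SE; edgeR adjusted p = 0.0156 and 0.0239). Both also rose in metastasis lines, by 0.80 ± 0.17 and 1.64 ± 0.27 (SE; edgeR adjusted p = 0.0105 and 0.00358). The difference between sites in the response passed for Cxcl1 and Cxcl5, 2 of 24, beside 2.94% of all genes. The inducing cytokines were near 0: Tnf reached at most 0.109 CPM and Il1b at most 0.0290 CPM in any library.

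Of 14 adhesion partners and related adhesion genes, 5 rose over all lines and 2 fell, beside 14.5% and 12.7% of all genes, with a median of 0.38. Mcam and Ncam1, both of the immunoglobulin superfamily as Icam1 and Vcam1 are, rose by 1.55 ± 0.23 and 0.91 ± 0.13. Alcam, of the same superfamily, and the integrin chain Itgb7, part of a receptor that binds VCAM1, fell by 0.96 and 1.00 (log2; edgeR adjusted p = 0.00416 and 0.0011). Itga4, the other chain of the VCAM1 receptors, stood at 14.65 and 43.97 CPM in T1 after DMSO and PLX4720 and at no more than 0.438 CPM in any other line. Itgal, a chain of the ICAM1 receptor LFA-1, reached at most 0.0303 CPM. The shares of each list called, beside those of all genes, are drawn in the bar plot by list.

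**Figure D4:**
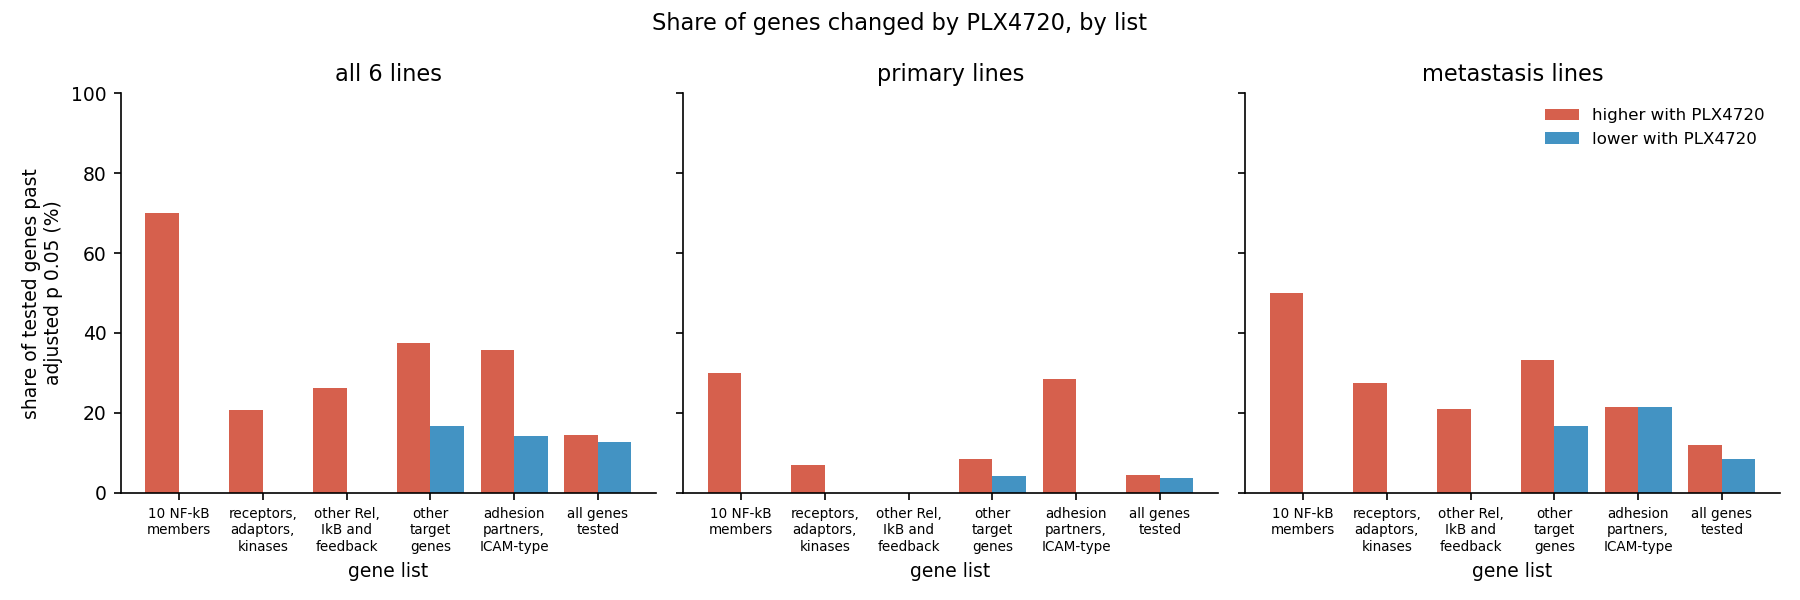
Share of tested genes that passed an edgeR adjusted p of 0.05 as higher (red) or lower (blue) with PLX4720, for the 10 members, the other pathway lists and all genes, over all 6 lines, in primary and in metastasis lines. Over all lines 70% of the members and 14.5% of all genes were higher.

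The genes whose changes per line were most like those of Icam1 were sought among 11703 genes with a mean log2 CPM of at least 1. The measure was the root mean square difference in log2(CPM + 1) change over the 6 lines. Ccl2, a monocyte chemokine, was nearest at 0.293, followed by Klhl13, an adaptor of a ubiquitin ligase, at 0.413 and Ccl20, a chemokine for CCR6-bearing lymphocytes, at 0.506. Ccl2 changed by 1.27, 0.90 and 1.08 in T1, T2 and T3 and by 1.29, 0.13 and 2.50 in M1, M2 and M3. M2 changed least and M3 most, as for Icam1, a likeness that follows from choosing Ccl2 by these same changes. For Icam1 the M2 change came from 1 and 2 fragments, which this scale holds near 0. Unlike Icam1, Ccl2 was abundant at both sites, with 15.7 to 41.4 CPM in primary and 49.2 to 105 CPM in metastasis lines after DMSO.

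**Figure D5:**
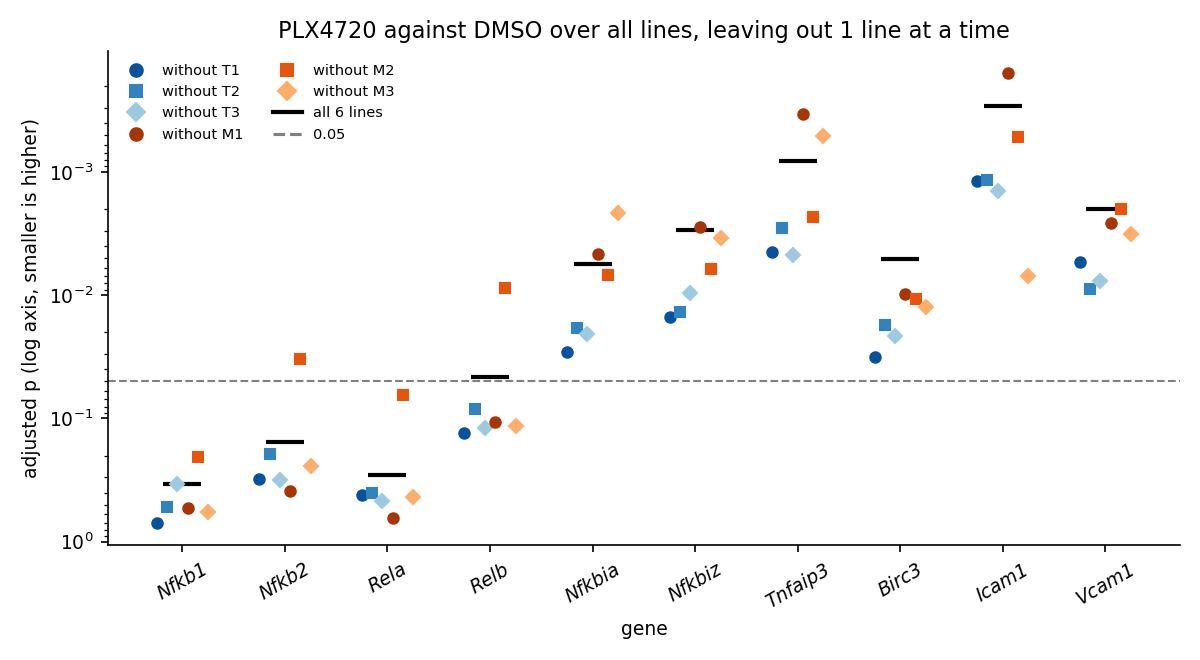
Adjusted p of each member for PLX4720 against DMSO over all lines (black bar; log axis, smaller values higher) and with 1 line left out (points by line), with a dashed line at 0.05. Nfkbia, Nfkbiz, Tnfaip3, Birc3, Icam1 and Vcam1 stay past the threshold in every case, Relb crosses it when T1, T2, T3, M1 or M3 is left out, and Nfkb2 passes without M2.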

How the data were processed

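RNA of 12 libraries from 6 lines was sequenced, after ribosomal RNA removal with a stranded kit per the labels' protocols. The authors deposited fragment counts without normalization, obtained with featureCounts 1.5.2 over Ensembl 84 exons on GRCm38, per the file headers. No strand option appears in the recorded command, hence opposite-strand overlaps (4 exon bases of Nfkb2 with Psd and 61 of Vcam1 with Gm43109) cannot be separated. Which aligner was used was not given in the sources used here. Of 47729 gene IDs 47224 matched a symbol.

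Counts were tested with edgeR 4.0.16 in R 4.3.3 (filterByExpr, TMM, quasi-likelihood test, Benjamini-Hochberg adjustment over all genes tested, threshold 0.05), after a test on simulated data. PLX4720 comparisons used 1 fit of all libraries in which the line was a block and each site had its own treatment term, and site comparisons used the 6 libraries of a treatment without a block; each left 4 residual degrees of freedom. The block comes from the labels: deviations from group means correlated at 0.839 to 0.923 between the libraries of a line. Libraries of a group differed by more than counting noise (the lowest chi-square over its degrees of freedom was 141.5). SEs are the fitted log2 change over the root of F and are approximate at low counts. CPM values use TMM-scaled library sizes, and the change of a line is its PLX4720 minus its DMSO value of log2(CPM + 1).

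The members and all gene lists were chosen with earlier results of these data known, so no list serves as independent support. From each list, up to 4 called genes with the smallest p and 1 direction in every line, or no overlap between sites, were eligible to be named. Itga4, Itgal, Tnf and Il1b were named after their values were seen. Alternatives were RLE and library-total scaling, no filter, DESeq2 1.42.0, other blocks and each line left out.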

Additional observations from a re-analysis of the deposited data

Results flagged for a closer look

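In M2 the log2(CPM + 1) change of Relb with PLX4720 was -0.4224, apart from the other 5 lines, in which it was 0.31 to 0.74. In M1 the change of Nfkbiz was 0.9055, apart from 0.33 to 0.47 in the other 5 lines. Each was picked out by its gap to the nearest line relative to the range of the 6 lines, a criterion that chance meets in about 1 of 20 groups.

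Among the members and the other pathway genes tested, the response to PLX4720 differed between sites for 3 genes, while 487 of all 16555 genes (2.94%) passed this test. They were 1 of 10 members and 2 of 24 other targets, with 0 of 29, 0 of 19 and 0 of 14 in the other lists. Taken over the members and lists together, that is close to the share of all genes. The edgeR interaction was 2.8737 for Icam1 (adjusted p = 0.0438), 2.3019 for Cxcl1 (adjusted p = 0.00299) and 3.0117 for Cxcl5 (adjusted p = 0.00509), each larger in metastasis lines. The Icam1 call was lost without T1, T2, T3 or M3 (adjusted p = 0.07, 0.126, 0.132 and 0.428), and on the log2(CPM + 1) scale its changes in M1 and M2 (0.68 and 0.04) lay below those of all primary lines (0.99 to 1.54). Icam1 had passed the filter on low counts through the primary lines alone. Cxcl1 went from 4.31 to 26.0 CPM in metastasis lines and from 31.6 to 33.8 CPM in primary lines, and Cxcl5 from 1.28 to 12.1 CPM and from 43.7 to 48.8 CPM (means of 3 lines). The primary means after DMSO rest largely on T2. Cxcl1 stood at 4.819, 75.33 and 14.69 CPM in T1, T2 and T3, and Cxcl5 at 6.239, 107.6 and 17.11 CPM. For Cxcl1, T1 lay within the range of the metastasis lines after DMSO (3.551 to 5.227 CPM). Cxcl5 had 129 fragments over the metastasis libraries after DMSO. M1 was highest there, and M2 and M3 stood at 0.08926 and 0.3485 CPM, so the Cxcl5 difference rests in part on low counts.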

How the results depend on the processing

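The counts of called members depended most on the cell line block. Without the replicate block 0 members passed over all lines (7 with it), in primary lines (3), in metastasis lines (5) and for the difference between sites (1), and the calls among all genes fell from 4496 to 18, 1362 to 1, 3378 to 15 and 487 to 0. In primary lines 5 members passed with library totals alone, 5 without the filter on low counts, 7 with DESeq2 and 9 with the primary libraries fitted alone. In metastasis lines fitted alone 2 passed, and Icam1 was not tested there. For the difference between sites 2 passed without the filter and 2 with DESeq2, Tnfaip3 being added. After PLX4720, 2 members passed between sites with DESeq2, 1 with a replicate block and 2 with 4 group means in 1 fit, against 0; replicate numbers do not pair the sites (correlations -0.0982 to 0.012). After DMSO the replicate block left 2 called members, with Icam1 in (adjusted p = 0.0294) and Nfkbiz out (adjusted p = 0.0512). With 1 line left out, called members numbered 6 to 8 over all lines, 0 to 7 in primary lines, 4 to 6 in metastasis lines, 0 to 2 for the difference, 0 to 3 between sites after DMSO and 0 to 2 after PLX4720. Calls among all genes over all lines were 2417 without T1. In primary lines they were 2052 without the filter, 2491 fitted alone, 91, 210 and 340 without T1, T2 and T3 and 2252 without M1, and in metastasis lines 2195 fitted alone and 1891 without M2. For the difference they were 996 without the filter, 920 with DESeq2 and 122 to 798 with a line left out. Between sites after DMSO they were 2974 with DESeq2, 1106 with the replicate block and 901 to 1174 without T2, M2 or M3, against 1819, and after PLX4720 3163 with DESeq2 and 1097 without M2, against 2061. Library totals alone moved the median of all genes between sites after PLX4720 from 0.03 to -0.09. No called member changed direction under any of these alternatives, RLE scaling included, and the cause of the changed counts was not tested. Depth limits Icam1 in metastasis lines, where DMSO libraries held 0 to 7 fragments.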
